A study of Mus musculus with 4 samples.

Results

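Surface proteins are the handles by which spermatogonia, the male germ cells that include the stem cells of the testis, are captured from a mixed suspension. The 9 genes described here encode surface proteins. Thy1 (CD90) is the antigen with which the cultures of this study were started, Epcam, Cd24a, Cdh1 and Mcam encode adhesion proteins that have served as germ cell markers, Itga6, Itgb1 and Itgav encode integrin subunits, and Cd9 encodes a tetraspanin. They were taken by their gene symbols, and all 9 were found among the 32285 genes of each matrix.

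Cells were primary spermatogonial cultures of the mouse. Testes of 3 pups at postnatal day 6 were dissociated, cells bound by an antibody to Thy1.2 (CD90.2) were retained on a magnetic column (MACS), and they were grown on STO cells, a mouse embryonic fibroblast line used as a feeder layer. For 3 days the medium held either PBS (vehicle) or 1 μg/mL of extracellular vesicles (EVs) that had been isolated from pooled testes of C57BL/6 mice at postnatal day 7, with GDNF and FGF in the medium of both arms. Each arm had 2 libraries, of which vehicle 1, vehicle 2 and EV 1 were analysed. The counts of EV 2 were not analysed here. The antibody selected cells before culture, so the transcripts below describe the cultured cells and not the selected fraction.

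Integrins are heterodimers of an α and a β subunit that bind the extracellular matrix. The α6 and β1 subunits together bind laminin, which lines the seminiferous tubule where spermatogonia lie, and αv pairs with several β subunits to bind proteins such as vitronectin and fibronectin. E-cadherin (Cdh1) joins like cells to each other through catenins. Epcam and CD24 are known from epithelia, and Mcam (CD146) from endothelium and pericytes. Tetraspanins such as CD9 gather integrins and other proteins in the membrane, and CD9 is also a usual marker of vesicles. Antibodies to these proteins are used to enrich spermatogonia, while none of them is restricted to germ cells in the mouse as a whole.

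Each cell was placed in a class by 7 genes that are not among the 9. A cell was called germ where its UMIs (unique molecular identifiers, 1 per captured molecule) of Dazl, Tex15 and Stk31, which are germ cell genes, summed to at least 2 and exceeded those of Col1a1, Col1a2, Sparc and Dcn, which are matrix genes of fibroblasts. It was called feeder in the reverse case, and neither otherwise. The feeder class cannot tell STO cells from fibroblasts of the testis. There were 3842, 4281 and 179 germ cells in vehicle 1, vehicle 2 and EV 1, which was 46.5%, 49.6% and 3.75% of the cells kept. Feeder cells numbered 2376, 2485 and 2509, or 28.8%, 28.8% and 52.5%. The median depth was 1999, 2142 and 1360 UMIs per germ cell and 3615, 3883 and 2447 UMIs per feeder cell.

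The classes were checked against 6 germ genes (Ddx4, Dnd1, Sall4, Mael, Tdrd5 and Taf4b) and 6 fibroblast genes (Col3a1, Col5a2, Col6a1, Fbn1, Loxl1 and Pdgfrb) that the rule did not use. The germ list summed to 510 to 533 CPM (UMIs scaled to a class total of 1e6) in germ cells and 3.54 to 18.1 CPM in feeder cells. The fibroblast list summed to 354 to 482 CPM in feeder cells and 37.2 to 66.6 CPM in germ cells. Expressed as a share of the other class, germ transcripts in feeder cells stood at 3.43%, 2.64% and 0.693% in vehicle 1, vehicle 2 and EV 1, and fibroblast transcripts in germ cells at 8.30%, 7.72% and 18.8%. In each library 1 of the 6 fibroblast genes, Fbn1, was higher in germ cells (11.6 against 7.28 CPM in vehicle 1), and without it the fibroblast shares were 5.92%, 5.20% and 15.9%. Levels of Epcam, Cd24a, Mcam, Cdh1 and Thy1 in the class where they were lower are set beside these shares below. Marker lists of endothelium, macrophages, T cells, Leydig and myoid cells summed to at most 29.6 CPM in either class. The Sertoli list reached 283 to 304 CPM in feeder cells, nearly all from Sox9 (280 CPM in vehicle 1), where Cst12 was at 0 in every library and Amh and Rhox8 at 0 in vehicle 1 and EV 1.

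Bases upstream of the gene start are shown for 3 of the 9 genes, chosen because Epcam lay on the germ side of the comparison and Itgav and Itgb1 on the feeder side. RefSeq windows on GRCm38.p6 were at hand for 5 of the genes. Those of Mcam and Cd9 precede a RefSeq start that lies inside the gene span given below, with 189 and 31 of their 250 bases in that span, and are left out. The 3 windows shown hold the 250 bases that end directly before the gene span, 5′ to 3′ on the strand of the gene. Capitals mark the E-box CAGGTG, a hexamer bound by zinc-finger factors that act on adhesion genes, and the GC box GGGCGG, bound by Sp family factors, on either strand. No capitals of the 2 motifs overlap in these windows.
Epcam, chr17:87635729-87635978, + strand: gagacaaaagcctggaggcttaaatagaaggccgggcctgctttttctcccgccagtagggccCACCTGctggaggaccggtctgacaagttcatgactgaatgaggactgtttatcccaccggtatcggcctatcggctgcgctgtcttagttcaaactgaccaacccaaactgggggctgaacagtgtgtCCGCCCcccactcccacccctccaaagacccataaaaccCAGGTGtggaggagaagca
Itgav, chr2:83724147-83724396, + strand: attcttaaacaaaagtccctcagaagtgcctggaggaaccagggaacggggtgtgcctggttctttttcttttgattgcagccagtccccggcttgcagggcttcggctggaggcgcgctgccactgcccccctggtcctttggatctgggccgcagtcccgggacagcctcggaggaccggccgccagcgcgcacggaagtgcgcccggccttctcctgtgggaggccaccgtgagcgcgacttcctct
Itgb1, chr8:128685404-128685653, + strand: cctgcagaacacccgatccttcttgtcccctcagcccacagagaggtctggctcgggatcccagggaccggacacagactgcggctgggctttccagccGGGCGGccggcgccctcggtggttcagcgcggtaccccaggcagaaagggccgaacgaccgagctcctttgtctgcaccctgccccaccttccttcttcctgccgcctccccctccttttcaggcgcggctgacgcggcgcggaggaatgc

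The Epcam window held 2 E-boxes and 1 GC box, the Itgav window none of either, and the Itgb1 window 1 GC box and no E-box. Among 32851 RefSeq windows of the same length, some of them of the same gene, 17.2% held the E-box and 32.7% the GC box. A TATA box (TATAAA, either strand) was found in none of the 3 windows and in 12.4% of all windows. CpG dinucleotides numbered 8 in Epcam, 18 in Itgav and 21 in Itgb1, beside a median of 6 over all windows. These are matches of letters and not tested sites.

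The first comparison asked in which class each gene was transcribed. Epcam, Cd24a, Mcam and Cdh1 were higher in germ cells, Thy1, Itgav and Itgb1 were higher in feeder cells, and Itga6 and Cd9 did not pass the test. Over all 15452 genes tested, 40.1% were called higher in germ cells and 42.1% lower, so that 4 and 3 calls among 9 genes are near the rate of genes at large. The genes are described singly below. With summed UMIs alone the balance turned, to 50.5% higher and 33.7% lower over all genes and to 6 and 3 of the 9. The low-count filter asked for about 1.11 CPM in 3 of the 6 sums. All 9 genes passed it, and Epcam, Cd24a, Mcam and Cdh1 did so through germ cells only, where they are high. These 4 were thus tested because of their level in germ cells, and their calls support nothing about the 9 genes as a set. The test was edgeR's quasi-likelihood test on UMIs summed per library and class, with library as a block (n = 3 libraries) and Benjamini-Hochberg adjustment over all genes tested.

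**Figure D1:**
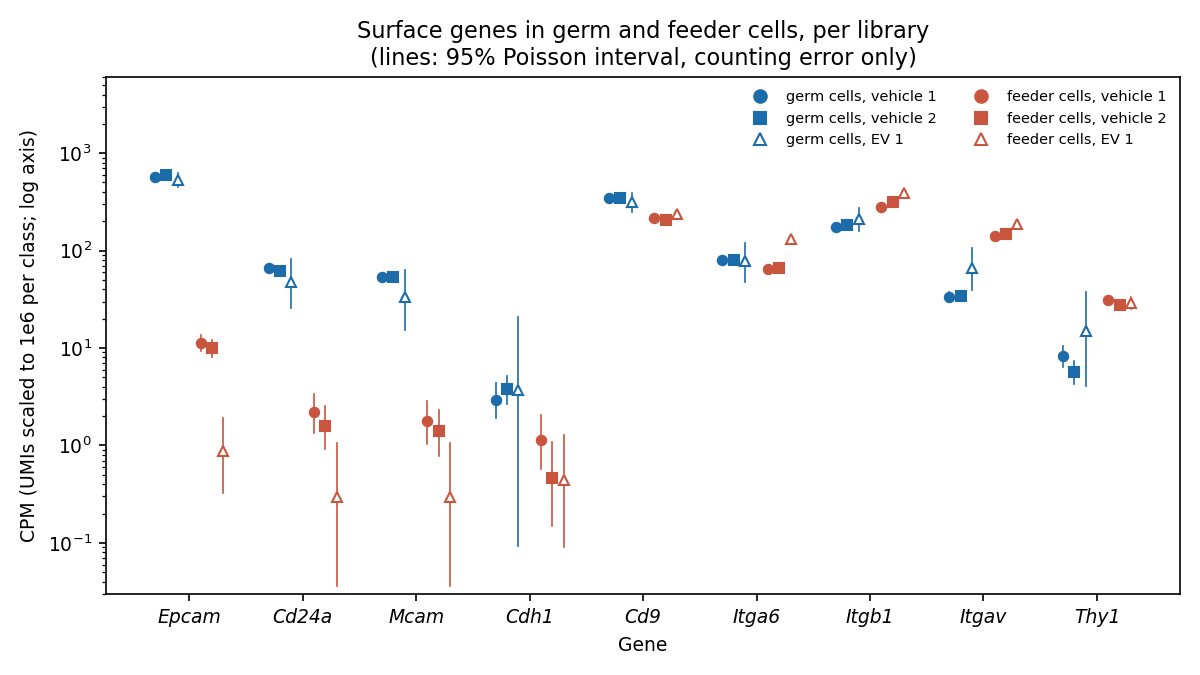
Levels of the 9 genes in CPM (log axis) in germ cells (blue) and feeder cells (red) of vehicle 1, vehicle 2 and EV 1, with lines for the 95% Poisson interval, which covers counting error only. Epcam, Cd24a and Mcam stand apart between the classes in all 3 libraries, Thy1 and Itgav lie on the feeder side, and in CPM the Itga6 points of vehicle and EV 1 feeder cells fall on different sides of the germ cells, while with TMM factors the log2 fold change in the vehicle libraries alone was −0.11.

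Epcam (chr17:87635979-87651129, + strand, GENCODE M21 on GRCm38, as for all gene spans below), a homophilic adhesion protein whose antibody is used to sort germ cells, was measured at 576, 597 and 536 CPM in germ cells of vehicle 1, vehicle 2 and EV 1. In feeder cells it was measured at 11.2, 9.92 and 0.884 CPM. The classes did not overlap, and the log2 fold change of germ over feeder cells was 5.83 ± 0.22 (SE, adjusted p = 1.4e-48). The feeder values were 1.95%, 1.66% and 0.165% of the germ values, beside 3.43%, 2.64% and 0.693% for the germ list. The vehicle mean in germ cells was 586 ± 14.5 CPM (SD, n = 2).

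Cd24a (chr10:43578284-43584265, + strand), which encodes a small GPI-anchored glycoprotein, was at 66.6, 62.4 and 48.1 CPM in germ cells and at 2.19, 1.58 and 0.295 CPM in feeder cells. The log2 fold change was 4.87 ± 0.18 (adjusted p = 7.9e-49), where counting error alone would give an SE of 0.23. Feeder levels were 3.28%, 2.53% and 0.613% of germ levels, also below the share of the germ list in each library. Processed copies of Cd24a exist elsewhere in the genome, and reads that match several places may be lost from its count.

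Mcam (chr9:44134469-44142727, + strand), an immunoglobulin-like adhesion protein, was at 54.0, 54.0 and 33.3 CPM in germ cells and 1.77, 1.39 and 0.295 CPM in feeder cells. Its difference was of like size, with a log2 fold change of 4.82 ± 0.19 (adjusted p = 2.1e-46), where counting error alone would give an SE of 0.25. Feeder levels were 3.27%, 2.58% and 0.885% of germ levels, below the share of the germ list in the vehicle libraries and above its 0.693% in EV 1, where the values rest on 9 UMIs in germ and 2 UMIs in feeder cells. Germ cells lay above feeder cells in 3 of 3 libraries.

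Cdh1 (chr8:106603351-106670246, + strand), E-cadherin, was scarce, with 25, 38 and 1 UMIs in germ cells and 11, 5 and 3 UMIs in feeder cells. This came to 2.96, 3.76 and 3.70 CPM against 1.14, 0.464 and 0.442 CPM, so that 1 of 3 feeder sums reached the filter. The log2 fold change was 1.77 ± 0.42 (adjusted p = 8.3e-05). Feeder levels were 38.7%, 12.3% and 12.0% of germ levels, above the share of the germ list in every library. Without vehicle 2 the fold change was 1.13 with an adjusted p of 0.175, so the call rests on that library.

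Thy1 (chr9:44043384-44048579, + strand), a GPI-anchored glycoprotein found on many fibroblasts and T cells as well as on spermatogonia, lay on the feeder side. Germ cells held 70, 57 and 4 UMIs, or 8.28, 5.63 and 14.8 CPM, and feeder cells 296, 297 and 196 UMIs, or 30.8, 27.5 and 28.9 CPM. Feeder cells lay above germ cells in every library, although in EV 1 the ratio of feeder to germ cells was 1.95 with a 95% interval of 0.750 to 7.24. The log2 fold change was −2.41 ± 0.15 (adjusted p = 1.2e-29). The germ level was 26.9%, 20.5% and 51.2% of the feeder level, above the 8.30%, 7.72% and 18.8% of the fibroblast list (5.92%, 5.20% and 15.9% without Fbn1), and how much of it came from feeder RNA was not tested. The feeder class in vehicle had a mean of 29.2 ± 2.31 CPM and the germ class 6.96 ± 1.87 CPM (SD, n = 2). T cell genes summed to at most 2.27 CPM in either class.

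Itgav (chr2:83724397-83806916, + strand), the αv integrin subunit, had almost the same difference, at 33.1, 34.6 and 66.6 CPM in germ cells and 139.5, 147.2 and 188.6 CPM in feeder cells. The log2 fold change was −2.42 ± 0.15 (adjusted p = 1.1e-30). Its germ level was 23.7%, 23.5% and 35.3% of the feeder level. Itgb1 (chr8:128685654-128733200, + strand), the β subunit shared by many integrins, was at 174.5, 184 and 210.8 CPM in germ cells and 277, 315 and 392 CPM in feeder cells, with a log2 fold change of −1.21 ± 0.16 (adjusted p = 4.2e-11). For both genes the 3 feeder values lay above the 3 germ values.

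Itga6 (chr2:71745616-71858416, + strand), the α6 subunit, was at 80.3, 79.8 and 77.7 CPM in germ cells and 64.3, 65.9 and 132.8 CPM in feeder cells. In CPM, germ cells were above feeder cells in both vehicle libraries and below them in EV 1, and the log2 fold change of −0.21 ± 0.11 did not pass the test (adjusted p = 0.086). Its direction depended on scaling. TMM factors, which centre the bulk of genes, lowered all log2 differences by a median of 0.37 against plain CPM, and with summed UMIs alone Itga6 stood at 0.24 (adjusted p = 0.014). With DESeq2 size factors in edgeR it was called lower in germ cells, at −0.22 (adjusted p = 0.021), and with TMM factors in the vehicle libraries alone it was at −0.11 (adjusted p = 0.067). Cd9 (chr6:125460266-125494791, − strand) was at 344, 346 and 314 CPM in germ cells and 216, 206 and 236 CPM in feeder cells. All germ values lay above all feeder values, the log2 fold change was 0.18 ± 0.16 (adjusted p = 0.28), and with summed UMIs alone it was 0.68 (adjusted p = 3.7e-08). Cd9 was also called without EV 1, at 0.30 (adjusted p = 4.2e-13), and with no filter on low counts, at 0.28 (adjusted p = 0.0011).

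The share of cells in which a gene was seen was counted next. Since germ cells were shallower than feeder cells, every cell was reduced at random to 1000 of its UMIs, which dropped the cells below that depth (116, 87 and 31 germ cells and 87, 56 and 184 feeder cells). Intervals are 95% Wilson intervals and, like all intervals here, cover counting error only.

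**Figure D2:**
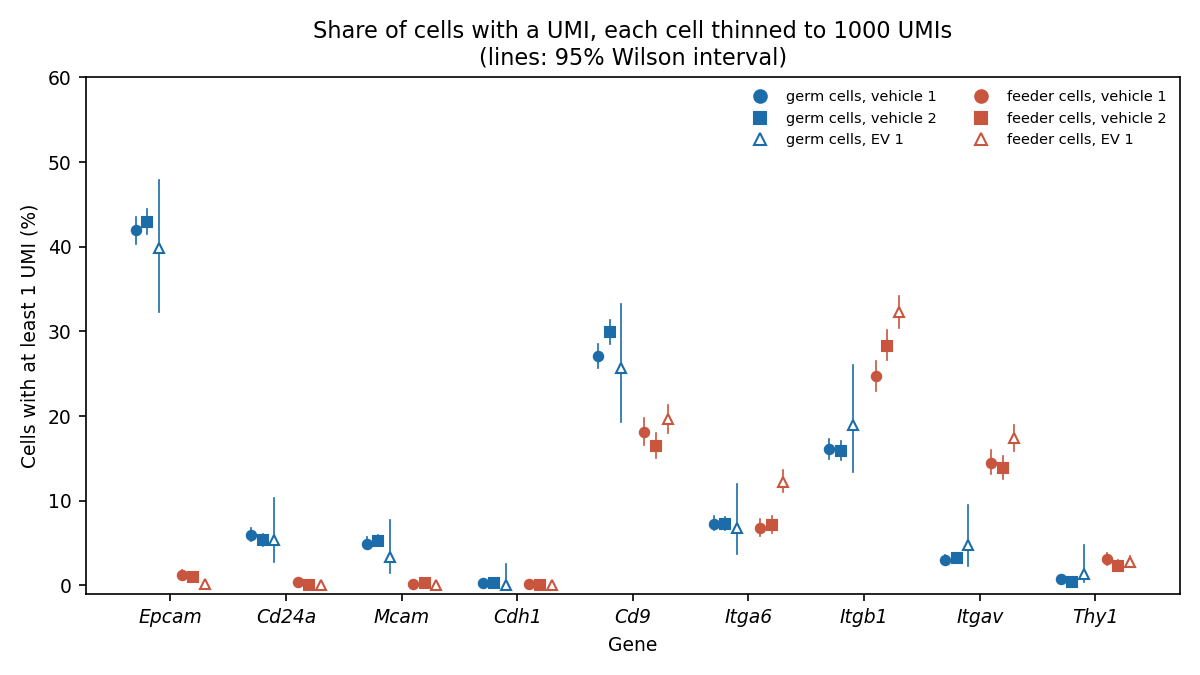
Share of germ cells (blue) and feeder cells (red) with at least 1 UMI of each gene after thinning to 1000 UMIs per cell, by library, with 95% Wilson intervals. Epcam was seen in 39.9% to 42.9% of germ cells, while Thy1 stayed under 4% in both classes.

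Epcam was seen in 41.9%, 42.9% and 39.9% of germ cells of vehicle 1, vehicle 2 and EV 1, and in 1.27%, 0.988% and 0.129% of feeder cells. Unthinned, the germ shares were 65.5%, 67.8% and 49.7%. The interval for counting error was 40.3% to 43.5% in vehicle 1 and 32.3% to 47.9% in EV 1, where it rests on 148 cells of 1 library, and the arms were not tested against each other.

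Thy1 was seen in 0.751%, 0.453% and 1.35% of germ cells, the last from 2 of 148 cells, and in 3.06%, 2.31% and 2.75% of feeder cells. Unthinned, 1.80%, 1.33% and 2.23% of germ cells and 10.9%, 10.6% and 7.13% of feeder cells carried a Thy1 UMI. In the vehicle libraries the intervals of the classes did not overlap (at most 1.08% in germ cells and at least 1.78% in feeder cells). In EV 1 they did overlap.

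Cd24a was seen in 5.34% to 5.96% and Mcam in 3.38% to 5.25% of germ cells, against at most 0.349% and 0.247% of feeder cells. Cd9 was seen in 25.7% to 29.9% of germ cells and 16.5% to 19.6% of feeder cells. Itgb1 went the other way, with 15.9% to 18.9% of germ and 24.7% to 32.3% of feeder cells, as did Itgav, with 3.03% to 4.73% and 13.8% to 17.4%. Itga6 was seen in 6.76% to 7.30% of germ cells, in 6.77% and 7.08% of vehicle feeder cells and in 12.3% of EV 1 feeder cells. Cdh1 was seen in at most 0.262% of germ cells, and in 0 of 148 in EV 1, where 3 counts, the limit set for a count of 0, would be 2.03% of cells with a UMI at this depth. Unthinned, 0.559% of the 179 germ cells of EV 1, or 1 cell, carried a Cdh1 UMI.

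The cells that carried a transcript were also counted by class, without thinning. Of 385 cells with a Thy1 UMI in vehicle 1, 17.9% were germ cells and 67.5% feeder cells, and of 365 in vehicle 2, 15.6% and 72.3%. In EV 1, 4 of 257 carriers (1.56%) were germ cells. Carriers of Epcam were germ cells in 75.7% and 80.3% of cases in the vehicle libraries and feeder cells in 2.65% and 2.13%, the rest being in neither class. Cd24a (76.6% and 80.8%) and Mcam (77.8% and 81.7%) gave like germ shares.

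**Figure D3:**
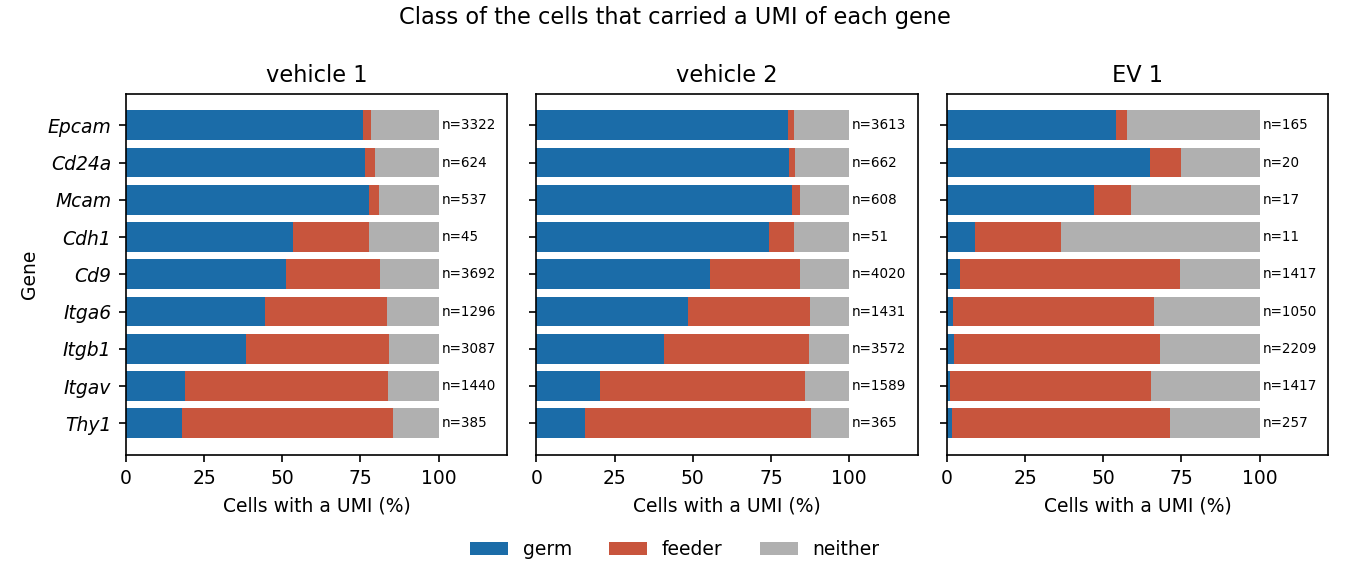
Class of the cells with at least 1 UMI of each gene, in percent of those cells (number at the right of each bar), by library, for germ (blue), feeder (red) and neither (grey). In the vehicle libraries most carriers of Epcam, Cd24a, Mcam, Cdh1 and Cd9 were germ cells and most carriers of Thy1 and Itgav were feeder cells, while in EV 1 germ cells made up under 5% of the carriers of Cd9, Itga6, Itgb1, Itgav and Thy1.

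Cd9 carriers were germ cells in 51.3% and 55.4% and feeder cells in 29.8% and 28.9% of cases in vehicle 1 and vehicle 2. Itga6 carriers were divided, with 44.5% and 48.4% germ and 39.0% and 39.0% feeder cells. Itgb1 carriers were 38.3% and 40.7% germ cells, and Itgav carriers 18.8% and 20.2%. These shares follow the number and depth of cells in each class as well as the level of the gene. In EV 1, where germ cells were 3.75% of the cells kept, Epcam carriers were germ cells in 53.9% of 165 cases, with 3.64% feeder cells and 42.4% in neither class.

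The second question was whether EVs changed the level of these genes within a class. With 1 EV library analysed there is no test, the difference has no replicate check, and the library and the treatment cannot be told apart. A gene was counted as past the fold where EV 1 differed from the mean of the vehicle libraries by a log2 ratio of at least 1 in size and the class held at least 200 UMIs of it. Over all kept cells, Epcam was at 289 and 299 CPM in vehicle 1 and vehicle 2 and at 24.8 CPM in EV 1, Cd24a at 34.0, 32.2 and 2.00 CPM, and Mcam at 27.2, 27.7 and 1.80 CPM. Itgav was at 89.1, 92.6 and 191.6 CPM. These made 1 gene past the fold upward and 3 downward of 8 tested, beside 5.65% and 19.3% of all 12585 genes. Cd24a and Mcam reached the minimum of 200 UMIs through the vehicle libraries, with 1497 and 1244 UMIs there and 20 and 18 in EV 1. The share of germ cells moved with these levels, from 46.5% and 49.6% to 3.75%, and the values within classes follow.

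**Figure D4:**
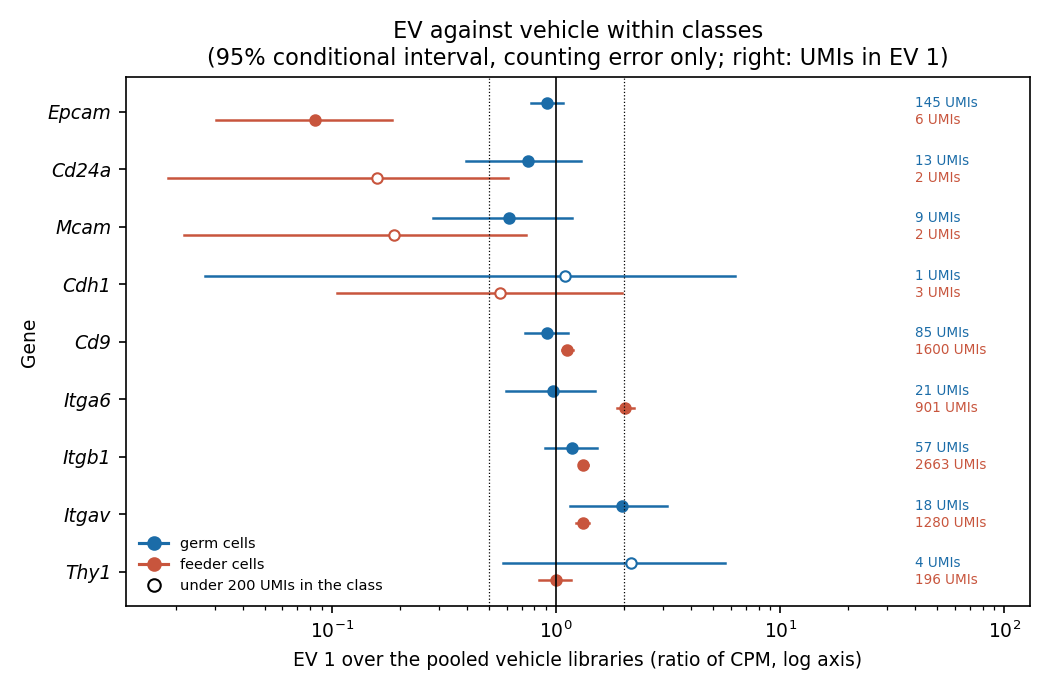
Ratio of EV 1 to the pooled vehicle libraries (log axis) within germ cells (blue) and feeder cells (red), with 95% conditional intervals for counting error, the UMIs of EV 1 at the right, and dotted lines at a 2-fold difference. Open points had under 200 UMIs in the class. Itga6 in feeder cells lies at 2.04 with a narrow interval, and Epcam in feeder cells at 0.0839.

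In germ cells the ratio of EV 1 to the pooled vehicle libraries was 0.913 for Epcam (95% interval 0.770 to 1.08), 0.748 for Cd24a (0.397 to 1.28) and 0.616 for Mcam (0.281 to 1.17). It was 0.911 for Cd9 (0.726 to 1.13), 0.971 for Itga6 (0.599 to 1.49) and 1.17 for Itgb1 (0.887 to 1.52). All 6 intervals held 1, and they leave room for changes of the size given by their bounds. Itgav alone had an interval above 1, at 1.96 (1.16 to 3.13), from 18 UMIs in EV 1 and 630 in vehicle, and its log2 ratio of 1.01 was the only one past the fold among 7 tested, beside 4.38% upward and 5.46% downward of all 9362 genes. The fibroblast list also stood higher in germ cells of EV 1, at 66.6 CPM against 38.9 and 37.2 CPM, and its part in the Itgav value was not tested. With TMM factors the log2 ratio of Itgav was 0.86, and as a mean over cells it was 0.70, both under the fold. Thy1 rested on 4 UMIs in EV 1, with a ratio of 2.16 (0.581 to 5.68).

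In feeder cells Itga6 was at 64.3 and 65.9 CPM in vehicle and 132.8 CPM in EV 1, a ratio of 2.04 (1.87 to 2.22) from 901 UMIs in EV 1. Epcam was at 11.2 and 9.92 CPM in vehicle and 0.884 CPM in EV 1, a ratio of 0.0839 (0.0304 to 0.186). With a class threshold of 3 UMIs the log2 ratio of Itga6 was 0.95, just under the fold. Epcam reached the minimum of 200 UMIs through the vehicle libraries, with 215 UMIs there and 6 in EV 1. At the threshold of 2, Itga6 and Epcam were the genes past the fold among 6 tested, beside 1.4% upward and 2.85% downward of all 9716 genes. The germ list in feeder cells moved with the Epcam value, at 18.1, 14.1 and 3.54 CPM, and its part in it was not tested. Itgb1 (ratio 1.32, 1.26 to 1.38), Itgav (1.31, 1.23 to 1.40) and Cd9 (1.12, 1.06 to 1.19) had intervals above 1 with EV 1 above both vehicle libraries, and Thy1 was at 0.993 (0.841 to 1.17), with EV 1 between them.

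Other integrins in feeder cells gave 1 gene of 9 tested past the fold upward and 1 downward, beside 1.4% upward and 2.85% downward of all genes, with a median log2 ratio of −0.08 beside −0.13 over all genes. Named after their values were seen, these were Itga7, a laminin-binding α subunit, at 6.66, 8.72 and 16.8 CPM in vehicle 1, vehicle 2 and EV 1, and Itga8 at 16.4, 16.8 and 7.66 CPM. Itga8 reached the minimum of UMIs through the vehicle libraries together, with 158 and 181 UMIs there and 52 in EV 1. Among 9 integrin ligands, 7 cadherins and catenins and 14 integrin partners tested in feeder cells, 0 were past the fold in either direction. In germ cells, 0 of 3 integrins, 0 of 7 ligands and 0 of 14 partners were past it, while Cdh2, N-cadherin, was the only gene of 7 cadherins and catenins that was (38.2, 42.1 and 92.5 CPM). Of all genes in germ cells, 4.38% were past the fold upward and 5.46% downward. The median log2 ratio in germ cells was 0.62 for the ligands, 0.35 for the partners, 0.15 for cadherins and catenins and −0.22 for the integrins, beside 0.01 over all genes, and the fibroblast list also stood higher in germ cells of EV 1 (66.6 against 38.9 and 37.2 CPM). Its part in these medians was not tested.

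The other surface proteins of spermatogonia gave 1 gene past the fold upward and 2 downward of 9 tested in germ cells, beside 4.38% and 5.46% of all genes, with a median log2 ratio of −0.01 beside 0.01 over all genes, and 0 of 4 in feeder cells. Named after their values were seen, the genes lower in EV 1 were Gfra1, the GDNF co-receptor, at 207, 218 and 104 CPM in germ cells of vehicle 1, vehicle 2 and EV 1 (28 UMIs in EV 1), and Adgra3, an adhesion GPCR, at 36.4, 33.6 and 11.1 CPM (3 UMIs). Plaur, the urokinase receptor, was at 16.8, 21.3 and 48.1 CPM (13 UMIs). Gfra1 and Adgra3 reached the minimum of UMIs through the vehicle libraries, where they were higher. There Gfra1 had 1754 and 2201 UMIs and Adgra3 had 308 and 340 UMIs. Plaur also reached the minimum through the vehicle libraries, with 142 and 215 UMIs, although it was higher in EV 1. Of the surface markers of other cells, 0 of 4 tested in germ cells were past the fold, with a median log2 ratio of 0.49. In feeder cells the median was −0.45 beside −0.13 over all genes, and 1 of 7 was past the fold, beside 1.4% upward and 2.85% downward of all genes. This was Vcam1, an adhesion protein of the immunoglobulin family, at 115.0, 118 and 27.3 CPM in feeder cells, also named after its value was seen. Vcam1 reached the minimum of UMIs through the vehicle libraries, with 1105 and 1275 UMIs there and 185 in EV 1. Epcam partners gave 0 of 2 tested genes in germ cells and 0 of 1 in feeder cells.

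The third comparison was made inside the germ class. Germ cells with a UMI of Stra8 or Kit, which mark spermatogonia entering differentiation, numbered 1271, 1445 and 28 in vehicle 1, vehicle 2 and EV 1. They were deeper than the other germ cells, with medians of 2206, 2419 and 1641.5 against 1902, 2045 and 1328 UMIs. Epcam was at 632, 645 and 739 CPM in these cells and 543, 566 and 487 CPM in the others. It was higher in 3 of 3 libraries, with a log2 fold change of 0.19 ± 0.038 (edgeR, adjusted p = 6.4e-05). Mcam was at 50.9, 42.0 and 56.8 CPM against 55.8, 61.4 and 27.6 CPM. It was lower in the vehicle libraries and higher in EV 1, where it had 3 and 6 UMIs, with a log2 fold change of −0.36 ± 0.10 (adjusted p = 0.018).

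These were the only calls among the 9 genes, beside 1.64% of 12992 genes called higher and 2.3% called lower. Both were lost with DESeq2 (adjusted p = 1 for both), without the library block (0.65 for Epcam and 0.21 for Mcam) and without either vehicle library. The other 7 had adjusted p from 0.089 for Cd9 to 0.95 for Itgb1. The difference of Thy1 was −0.23 ± 0.30, so a change of that size or its reverse could not be told from none. The fit found little spread between libraries beyond counting. Counting error alone would give an SE of 0.028 for Epcam and 0.097 for Mcam, beside 0.038 and 0.10 in the fit, so these p-values rest for the most part on counting error.

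Germ cells with a UMI of the cycling genes Mki67 or Top2a numbered 2656, 3034 and 89. Cd9 was at 325.8, 339 and 276 CPM in them and 404, 371 and 363 CPM in the other germ cells. It was lower in 3 of 3 libraries, with a log2 fold change of −0.23 ± 0.048 (edgeR, adjusted p = 5.0e-04), beside 6.85% of 11818 genes called lower and 8.22% called higher. The call was lost with DESeq2 (adjusted p = 0.51), without the library block (0.15) and without either vehicle library (0.71 without vehicle 1 and 0.28 without vehicle 2). Of the other 8 genes, 7 were not called and Cdh1 was too scarce to be tested. The cycling cells had medians of 2232, 2413 and 1560 UMIs, and the others 1582.5, 1668 and 1216.5 UMIs. Among germ cells with 1500 to 4000 UMIs, Cd9 was at −0.14 and not called (adjusted p = 0.13). Counting error alone would give an SE of 0.041 for Cd9, beside 0.048 in the fit.

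The surroundings of the 9 genes in their pathways were described by gene lists, each with its count of calls in the comparison of germ with feeder cells and its median log2 fold change, beside a median of −0.04 over all genes tested. Each count is to be read against the 40.1% of all genes called higher and 42.1% called lower. A gene that passed the low-count filter through 1 class only was selected for its level in that class, so the counts describe the tested genes and support nothing about a list.

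**Figure D5:**
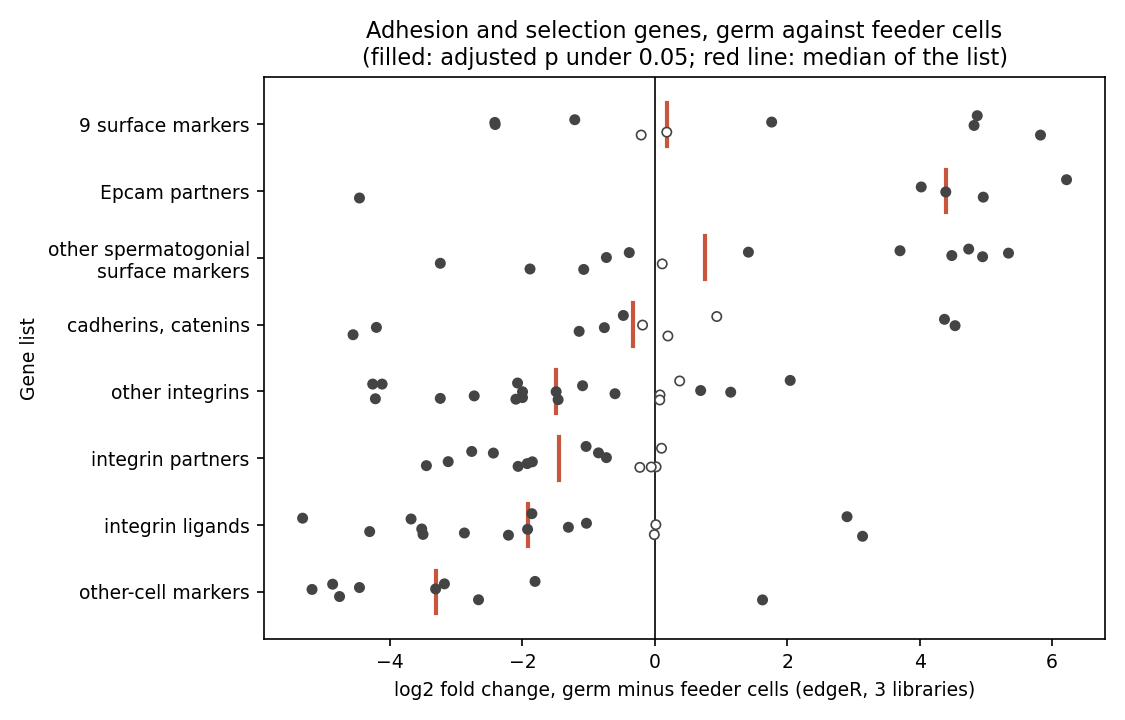
Log2 fold change of germ over feeder cells (edgeR, 3 libraries) for the genes of each list, with filled points for an adjusted p under 0.05 and a red line at the median of the list. Most tested integrin ligands, integrin partners and markers of other cells lie to the left of 0.

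Genes whose proteins act beside Epcam in epithelia, namely claudins, the membrane protease St14 and its inhibitors Spint1 and Spint2, and Cd44, were in part too scarce to be tested, and all those tested except Cd44 passed the filter through germ cells only, so no count or median is given for the list. Spint1 was at 20.6, 18.7 and 25.9 CPM in germ cells and at most 0.278 CPM (3 UMIs) in feeder cells. Spint2 was at 179, 205 and 174 CPM in germ cells and 3.97 CPM on average in feeder cells. Cd44, the hyaluronan receptor, was lower in germ cells, at 11.3, 8.50 and 33.3 CPM against 175, 186 and 195 CPM. Cldn3, Cldn4 and Cldn6 were too scarce to be tested.

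Other surface proteins by which spermatogonia are known divided into 6 higher, 5 lower and 1 not called of 12 tested, with a median of 0.76, shares that are near those of all genes. Of these, 5 passed the filter through 1 class only, Ret, Kit and Lepr among them. Ret, the receptor through which GDNF signals, was at 96.4, 105 and 70.3 CPM in germ cells and 2.08, 2.23 and 0.147 CPM in feeder cells (log2 fold change 5.34 ± 0.16, adjusted p = 6.0e-56). Kit, the stem cell factor receptor, followed with 4.95 ± 0.21 (adjusted p = 2.0e-43). On the feeder side were Ncam1, a neural adhesion protein, with −3.24 ± 0.18 (adjusted p = 2.2e-34), and the leptin receptor Lepr with −1.89 ± 0.40 (adjusted p = 9.6e-06). Lepr was scarce, with 6, 12 and 1 UMIs in germ cells. In EV 1 it was at 3.70 CPM in germ cells and 3.68 CPM in feeder cells.

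Integrin subunits other than the 3 described above were lower in germ cells in 13 of 19 tested genes, higher in 3 and not called in 3, with a median of −1.49. Of the 13, 7 passed the filter through feeder cells only, and with summed UMIs alone 11 were lower and 5 higher. Itgb8, a partner of αv, and Itga8 were 2 of these 7 and had the largest differences, at −4.26 ± 0.35 (adjusted p = 1.3e-21) and −4.22 ± 0.24 (adjusted p = 4.7e-32). Itga9 (2.05 ± 0.38, adjusted p = 6.8e-07) and Itgae (1.15 ± 0.19, adjusted p = 4.9e-08) led those higher in germ cells, at 5.35 and 11.4 CPM on average. Itgb4, the other β partner of α6, was at 4.73, 2.87 and 7.40 CPM in germ cells and 2.39, 1.39 and 1.77 CPM in feeder cells.

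Ligands of integrins were lower in germ cells in 11 of 15 tested genes, with a median of −1.92. Of the 11, 3 passed the filter through feeder cells only, and both ligands called higher passed through germ cells only. Osteopontin (Spp1), a ligand of αv integrins, was at 12968.5, 12585 and 10085 CPM in feeder cells and 851, 592 and 1191 CPM in germ cells, with a log2 fold change of −4.31 ± 0.15 (adjusted p = 3.2e-52). Tenascin C (Tnc) reached −5.32 ± 0.21 (adjusted p = 8.3e-47). Vitronectin (Vtn, 3.14 ± 0.67, adjusted p = 1.2e-05) and the laminin chain Lama5 (2.90 ± 0.28, adjusted p = 2.8e-17) were the tested ligands called higher in germ cells, Vtn from 19, 16 and 1 germ UMIs. The laminin chain Lama1 was not tested, with 43, 56 and 0 UMIs (5.08, 5.54 and 0 CPM) in germ cells and 2, 3 and 2 UMIs (0.208, 0.278 and 0.295 CPM) in feeder cells.

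Of 14 proteins that sit beside integrins in the membrane or at the cytoskeleton, 10 were lower in germ cells, 0 higher and 4 not called, with a median of −1.44, and all 14 passed the filter in both classes. With summed UMIs alone 10 were lower and 3 higher. Cd81 and Cd63, tetraspanins of the same family as Cd9, were lower in germ cells, with log2 fold changes of −3.45 ± 0.17 (adjusted p = 7.4e-37) and −3.12 ± 0.16 (adjusted p = 2.4e-36). Cd81 was at 133, 119 and 207 CPM in germ cells and 1188, 1164 and 1008 CPM in feeder cells. Cd9, at 0.18 by TMM and 0.68 with summed UMIs alone, had the opposite sign to these genes in both scalings. Other tetraspanins in the lists lay on either side. Tspan33 (4.74 ± 0.25) and Tspan8 (3.70 ± 0.36) were higher in germ cells, and both passed the filter through germ cells only. Cd82 (−0.73 ± 0.13) and Cd151 (−1.04 ± 0.11) were lower.

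Cadherins and catenins were higher in 2, lower in 5 and not called in 3 of 10 tested genes, with a median of −0.33. With summed UMIs alone the median was 0.11, with 5 higher and 4 lower, so that the direction of the list depends on scaling. Both genes called higher with TMM factors passed the filter through germ cells only. R-cadherin (Cdh4) was at 77.2, 77.1 and 77.7 CPM in germ cells (log2 fold change 4.54 ± 0.16, adjusted p = 3.2e-50), and P-cadherin (Cdh3, 4.38 ± 0.28, adjusted p = 4.8e-29) was also higher there. Cdh11 (−4.56 ± 0.16, adjusted p = 1.7e-51) and Cdh13 (−4.21 ± 0.14, adjusted p = 4.1e-54) were lower. The catenins that hold E-cadherin, Ctnnb1 and Ctnna1, were not called (adjusted p = 0.27 and 0.16).

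Surface markers of other cells, some of which are used to deplete them, were lower in germ cells in 8 of 9 tested genes, with a median of −3.31. Ly6a (Sca-1) was at 793, 797 and 411 CPM in feeder cells and 31.9, 22.1 and 33.3 CPM in germ cells (log2 fold change −5.18 ± 0.21, adjusted p = 2.9e-45). Pdgfra, a receptor of mesenchymal cells, reached −4.87 ± 0.17 (adjusted p = 1.4e-51). Nt5e (CD73) was the exception, with 1.63 ± 0.33 (adjusted p = 4.5e-06). It was scarce, with 50, 53 and 0 UMIs in germ cells and 11, 16 and 6 UMIs in feeder cells. EV 1 thus did not share its direction.

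The pattern of each gene over the 6 sums of library and class was compared with that of 12012 genes by the Euclidean distance between centred log2(CPM + 1) values, as a description without a test, since libraries, depth and class are shared by all points. Nearest to Thy1 were the integrin Itgb2 (0.144) and Cdh18 (0.236). Nearest to Epcam were Usp26 (0.283) and the meiotic cohesin Smc1b (0.375), to Cd24a Prdm16 (0.139) and the meiotic recombinase Dmc1 (0.240), and to Mcam Tex11 (0.237) and 2410018L13Rik (0.276). Itgb1 lay nearest to the catenin Ctnnd1 (0.0560) and to Tbc1d9 (0.129), and Itgav to Kcnip4 (0.132) and Rassf1 (0.214). Cd9 lay nearest to Sec23b (0.0265) and Snrpd3 (0.0887), Itga6 to Psmb7 (0.301) and Cblb (0.318), and Cdh1 to Stk38l (0.220) and 2510046G10Rik (0.224).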

How the data were processed

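Single-cell libraries had been made with the 10x Genomics protocol. Per the file headers and the study's methods, Cell Ranger 7.0.1 aligned the reads to mm10 with GENCODE vM23. Whether intronic reads were counted is not given in the sources used here. The authors deposited UMI counts without normalization for barcodes already called as cells. Vehicle 1, vehicle 2 and EV 1 held 9291, 9738 and 5249 barcodes and 23686047, 27444797 and 10793232 UMIs. EV 2 entered with its 6794 barcodes only. Libraries shared 11 to 22 barcodes. Groups came from the sample titles, which call the libraries of an arm biological replicates. Since the cultures are described as started from 3 pups, p-values do not reach beyond these libraries. The spread behind them was moderated with that of all genes tested, so they do not measure the spread between these libraries alone. For Cd24a and Mcam in germ against feeder cells, the SE of the fit was below that of counting error.

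Kept cells had more than 400 and fewer than 4000 genes and less than 10% mitochondrial UMIs, and the highest Scrublet scores (scanpy 1.11.5) were removed at 0.8% per 1000 cells (7.12%, 7.47% and 3.98% of cells). This left 8263, 8637 and 4779 cells. UMIs were summed per library and class and tested with edgeR 4.0.16 (TMM, filterByExpr, quasi-likelihood, library as a block, adjusted p under 0.05), with DESeq2 1.42.0 as an alternative. The class fits are paired because both classes came from the same library. The SE is the log2 fold change divided by the square root of the F statistic, which understates the error where a class holds few UMIs. CPM is UMIs scaled to 1e6 per class. EV ratios were computed without a test, with 0.5 UMI added for the log2 ratio, exact conditional intervals for the ratio to pooled vehicle, and a minimum of 200 UMIs. A count of 0 was bounded at 3 counts. Scripts were tested on simulated data. Python 3.11.15, scipy 1.17.1, R 4.3.3 and matplotlib 3.10.9 were used.

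The 9 genes, the class rule and the gene lists were chosen with earlier results of these data known. Genes named in the text are the 9 genes, those of the class rule, the 2 called genes of largest change in each direction of each list, and the 2 genes nearest to each of the 9. Itga7, Itga8 in the EV comparison, Itgb4, Cdh2, Gfra1, Adgra3, Plaur and Vcam1 in the EV comparison, Ctnna1, Ctnnb1, Lama1, the tetraspanins Tspan8, Tspan33, Cd82 and Cd151, the list members too scarce to test and the marker genes of cell type lists are named in addition.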

Additional observations from a re-analysis of the deposited data

Results flagged for a closer look

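Itga6 and Cd9 were picked out because EV 1 lay on opposite sides of both vehicle libraries in the 2 classes, and the difference was not tested because 1 EV library was analysed. For Itga6 the ratio of EV 1 to the pooled vehicle libraries was 0.971 (95% interval 0.599 to 1.49) in germ cells and 2.04 (1.87 to 2.22) in feeder cells, so the intervals for counting error did not overlap. For Cd9 it was 0.911 (0.726 to 1.13) and 1.12 (1.06 to 1.19), and the intervals overlapped.

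Itga6 was also picked out because the order of the classes in plain CPM differed between the arms. The ratio of germ to feeder CPM was 1.25 in vehicle 1 and 1.21 in vehicle 2, with intervals of 1.12 to 1.39 and 1.09 to 1.34, and 0.585 in EV 1, with an interval of 0.360 to 0.900. The order rests on the scaling, since with TMM factors the log2 fold change of germ over feeder cells in the vehicle libraries alone was −0.11 (edgeR, adjusted p = 0.067). The difference between the arms was not tested either.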

How the results depend on the processing

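For germ against feeder cells, every alternative kept the direction of the 9 genes except that Itga6 stood at 0.24 with summed UMIs alone. Epcam, Cd24a, Mcam, Thy1, Itgav and Itgb1 remained called in all of them. Subtracting the share of free RNA measured by the marker lists left all calls as they were. That subtraction lowers a gene mainly in the class where it is low, so it could hardly remove a call. Calls on Cd9, Itga6 and Cdh1 depended on scaling, filter or library as given above. Of 108 single values recomputed for this comparison, 102 kept both direction and call.

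The library block is part of the class fits. Without it, the Stra8 or Kit comparison called 0 of the 9 genes higher and 0 lower and 49 and 71 genes in all (213 and 299 with it), and the Mki67 or Top2a comparison called 0 of the 9 lower and 550 and 352 genes (971 and 810 with it). No paired analysis was possible between EV and vehicle because counts of 1 EV library only were analysed here.

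In the Stra8 or Kit comparison, DESeq2 called 0 and 0 of the 9 genes and 3 and 2 genes in all, a class threshold of 3 UMIs 0 of the 9 lower and 130 and 194 genes, and germ cells with 1500 to 4000 UMIs 126 genes higher. Leaving out a library gave 0 to 1 of the 9 in each direction, 2 to 312 genes higher and 3 to 439 lower. In the Mki67 or Top2a comparison, DESeq2 called 0 of the 9 lower and 149 and 47 genes, no filter on low counts 1 of the 9 higher, and cells with 1500 to 4000 UMIs 1 higher, 0 lower, and 636 and 423 genes. Leaving out a library gave 0 to 1 of the 9 lower, 81 to 1203 genes higher and 17 to 1042 lower. The cause was not tested.

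Uncalled values that changed sign were, in the Stra8 or Kit comparison, Itgb1 (0.00066 with summed UMIs alone, −0.11 to 0.045 leaving out a library) and Itgav (−0.10 to 0.022 leaving out a library). In the Mki67 or Top2a comparison they were Itgav (0.016 with DESeq2, 0.15 at a threshold of 3 UMIs, −0.10 to 0.10 leaving out a library), Itgb1 (0.0018 without a filter, −0.12 to 0.0014 leaving out a library), Mcam (−0.011 to 0.22 leaving out a library) and Cd24a (−0.060 with 1500 to 4000 UMIs).

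In germ cells, 0 genes were past the fold upward in EV 1 with TMM factors, no doublet removal, all barcodes, the mean over cells or a threshold of 3 UMIs, and 0 to 1 leaving out a vehicle library. The threshold of 3 UMIs put 1 gene (Mcam, −1.06) past it downward and left 0 past it upward in feeder cells, where Itga6 was at 0.95. At that threshold 3 genes, not 5, had most of their carriers among germ cells in both vehicle libraries. TMM factors moved all log2 ratios of EV 1 by −0.16 in germ and 0.07 in feeder cells. The 179 germ cells of EV 1 limit every statement on EVs in that class.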

Other observations

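Cells in neither class made up 24.7% of vehicle 1, 21.7% of vehicle 2 and 43.8% of EV 1, with medians of 1443, 1508 and 1176 UMIs. Epcam was at 367, 330 and 32.8 CPM in them, between the germ and feeder levels of each library. Cd24a (43.1, 40.6 and 1.69 CPM) and Mcam (32.6, 33.5 and 2.37 CPM) moved in the same way. Thy1 was at 18.3, 14.5 and 25.7 CPM and Itgav at 85.6, 91.5 and 209.8 CPM. Itga6 was at 72.6 and 65.4 CPM in the vehicle libraries and 145 CPM in EV 1, where feeder cells were at 132.8 CPM.

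Feeder cells with a UMI of Mki67 or Top2a held more Epcam than the other feeder cells, at 28.6 against 7.84 CPM in vehicle 1 and 24.9 against 7.38 CPM in vehicle 2, from 45, 63, 39 and 68 UMIs. Mcam was at 5.08 against 1.12 CPM and 3.83 against 0.976 CPM, from 8, 9, 6 and 9 UMIs. In EV 1, Epcam was at 5.50 against 0.757 CPM, from 1 and 5 UMIs. Mcam lay the other way there, at 0 against 0.303 CPM, from 0 and 2 UMIs. In the vehicle libraries the cycling feeder cells were also deeper, with medians of 4715 and 5328 UMIs against 3502.5 and 3776 UMIs. No test was made of these values, which were chosen after they were seen.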
